A study of Mus musculus with 12 samples.

Results

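Infarct cells with high surface PDGFRα were compared by the state of their p16 reporter: 3 samples of P16hi cells against 3 samples of P16lo cells, 6 of the 12 samples of the series. Samples were chosen by their labels alone. All mice carried p16-2A-CreER, an allele in which the p16 promoter makes a Cre recombinase that works only with tamoxifen, together with R26-mTmG, a reporter that Cre switches to green. Every mouse had a myocardial infarction (MI) and received tamoxifen by oral gavage on day 5, and hearts were collected on day 7 for their infarct zone. Tissue was digested, cardiomyocytes were removed, and cells were sorted by flow cytometry for high PDGFRα and for high green fluorescence (P16hi) or low (P16lo). The other 6 samples were P16hi and P16lo cells sorted for high F4/80 from the same kind of mice and are used here only where the reporter difference of both sorts was compared. Green fluorescence marks cells in which the p16 promoter had driven Cre around the tamoxifen dose, and not p16 protein on the day of the sort. Whether replicates were separate animals is not in the labels, and the p-values below may measure technical spread only.

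PDGFRα is the receptor for platelet-derived growth factor that marks cardiac fibroblasts, the cells that lay down the collagen scar after an infarct. p16, one product of Cdkn2a, blocks the kinases CDK4 and CDK6, keeps the retinoblastoma protein active and holds a cell out of the cycle; it is widely used as a mark of senescent cells, which stay alive, stop dividing and secrete chemokines, proteases and growth factors. In the infarct such cells sit beside recruited macrophages, surviving heart muscle and capillaries.

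Depth differed with the reporter: P16lo libraries held 13.5 to 18.9 M estimated counts (M, 1000000) and P16hi libraries 3.16 to 10.2 M, with no overlap, so that depth and reporter state cannot be told apart. P16hi library 1, the smallest, stood in a column block of its own in the deposited table, which did not list 4304 genes that the other block listed. These were set at 0, and 1826 of the 13262 genes tested were at 0 in that library. Of the genes for which the other libraries predicted at least 10 counts, 1096 of 11847 were at 0 there. Hemoglobin genes took 0.588% to 44.8% of counts in P16lo and 0.244% to 4.62% in P16hi libraries. The correlation of log2 CPM (counts per 1000000 of the scaled library) over all tested genes was 0.793 to 0.87 among P16lo, 0.821 to 0.928 among P16hi and 0.722 to 0.916 between P16lo and P16hi libraries, so that P16lo 1 was closer to P16hi 2 (0.916) than to either of its own group.

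The P16lo libraries held 2, 2 and 3 counts of Cdkn2a, the gene that the reporter follows, and the P16hi libraries 6, 5 and 8. Every P16hi library lay above every P16lo library, on few counts. The pooled CPM ratio was 5.3, with an exact binomial 95% interval of 2.13 to 14.9 that covers counting error only. The exact two-sided permutation p on log2(CPM + 1) was 0.1, the smallest that 3 against 3 samples can give. Cdkn2a (chr4, 89274473 to 89294619, GRCm38) also encodes p19Arf, and gene counts do not separate its products.

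The label of the sort was not borne out evenly by its markers. Pdgfra, the receptor's gene, had 4.65, 6.76 and 165 CPM in the P16lo libraries, against 20.2, 8.61 and 46.5 CPM in the P16hi libraries. P16lo 3 was far above the other 5, and the groups overlapped. The sum over 16 fibroblast markers was 1801, 5510 and 36540 CPM for P16lo, against 7216, 3732 and 12270 CPM for P16hi, and 0 of the 16 were separated, that is, higher or lower in all 3 P16hi than in all 3 P16lo libraries. For 16 macrophage markers it was 34110, 8170 and 2346 CPM against 20190, 14590 and 7085 CPM, and again 0 of 16 were separated. Macrophage markers exceeded fibroblast markers in P16lo 1, P16lo 2, P16hi 1 and P16hi 2, while fibroblast markers were above in P16lo 3 and P16hi 3. A sum depends on the genes chosen and is not a share of cells. In sorted bulk RNA, fewer cells of a type and less RNA per cell cannot be told apart, which holds for every difference given here.

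**Figure D1:**
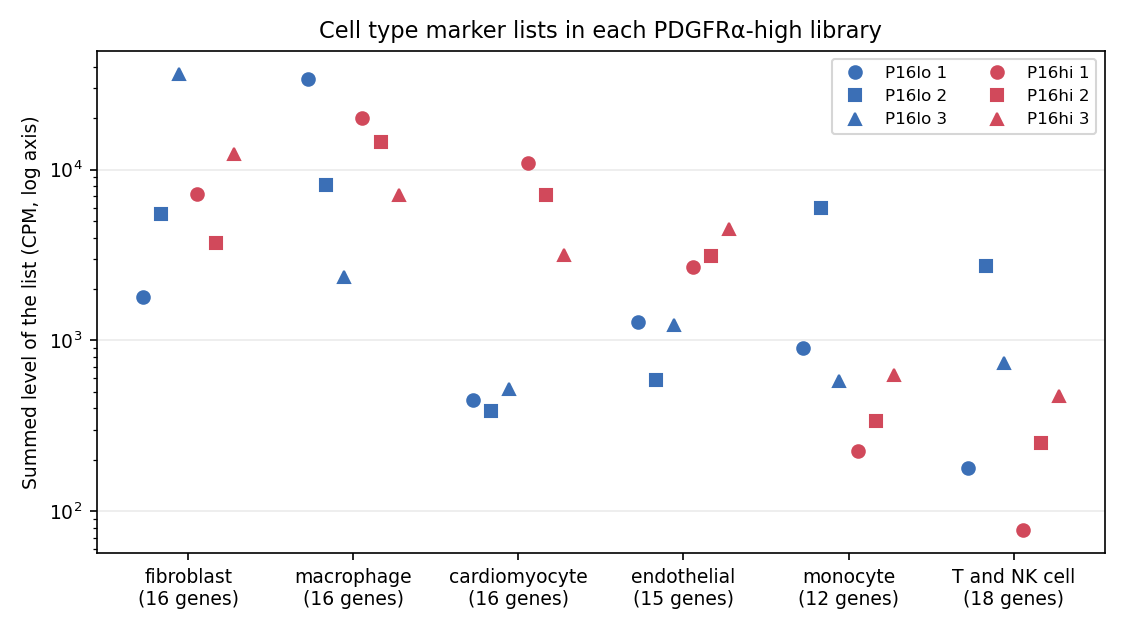
Summed level (CPM, log axis) of 6 lists of cell type markers in each of the 3 P16lo (blue) and 3 P16hi (red) PDGFRα-high libraries; each point is 1 library. Fibroblast and macrophage sums overlap between the groups, whereas cardiomyocyte and endothelial sums are higher in each P16hi library.

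Over all genes, no single difference passed edgeR's quasi-likelihood test at a Benjamini-Hochberg adjusted p under 0.05: 0 of 13262 genes were called higher and 0 lower. Without adjustment, 637 genes (4.80%) had p under 0.05 with higher and 222 (1.67%) with lower values in P16hi cells. By the plainer criterion of separated libraries, 1050 genes (7.92%) were higher and 918 (6.92%) lower. These shares are the background for every later count of separated genes in this main comparison, and other settings have shares of their own. DESeq2 called 293 genes higher (2.21%) and 11 lower (0.0829%), and limma on log2(TPM + 1) called 219 (1.65%), of which 0 were lower. The smallest edgeR adjusted p, 0.0838, was shared by 22 genes. All 22 were higher in P16hi libraries, and 19 of them stood on the heart muscle lists. The median log2 fold change over all tested genes was -0.17, against which the values of single lists can be set. It was 0.24 with library totals only and 0.45 in log2(TPM + 1), and with library totals the separated genes were 2279 higher and 72 lower.

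**Figure D2:**
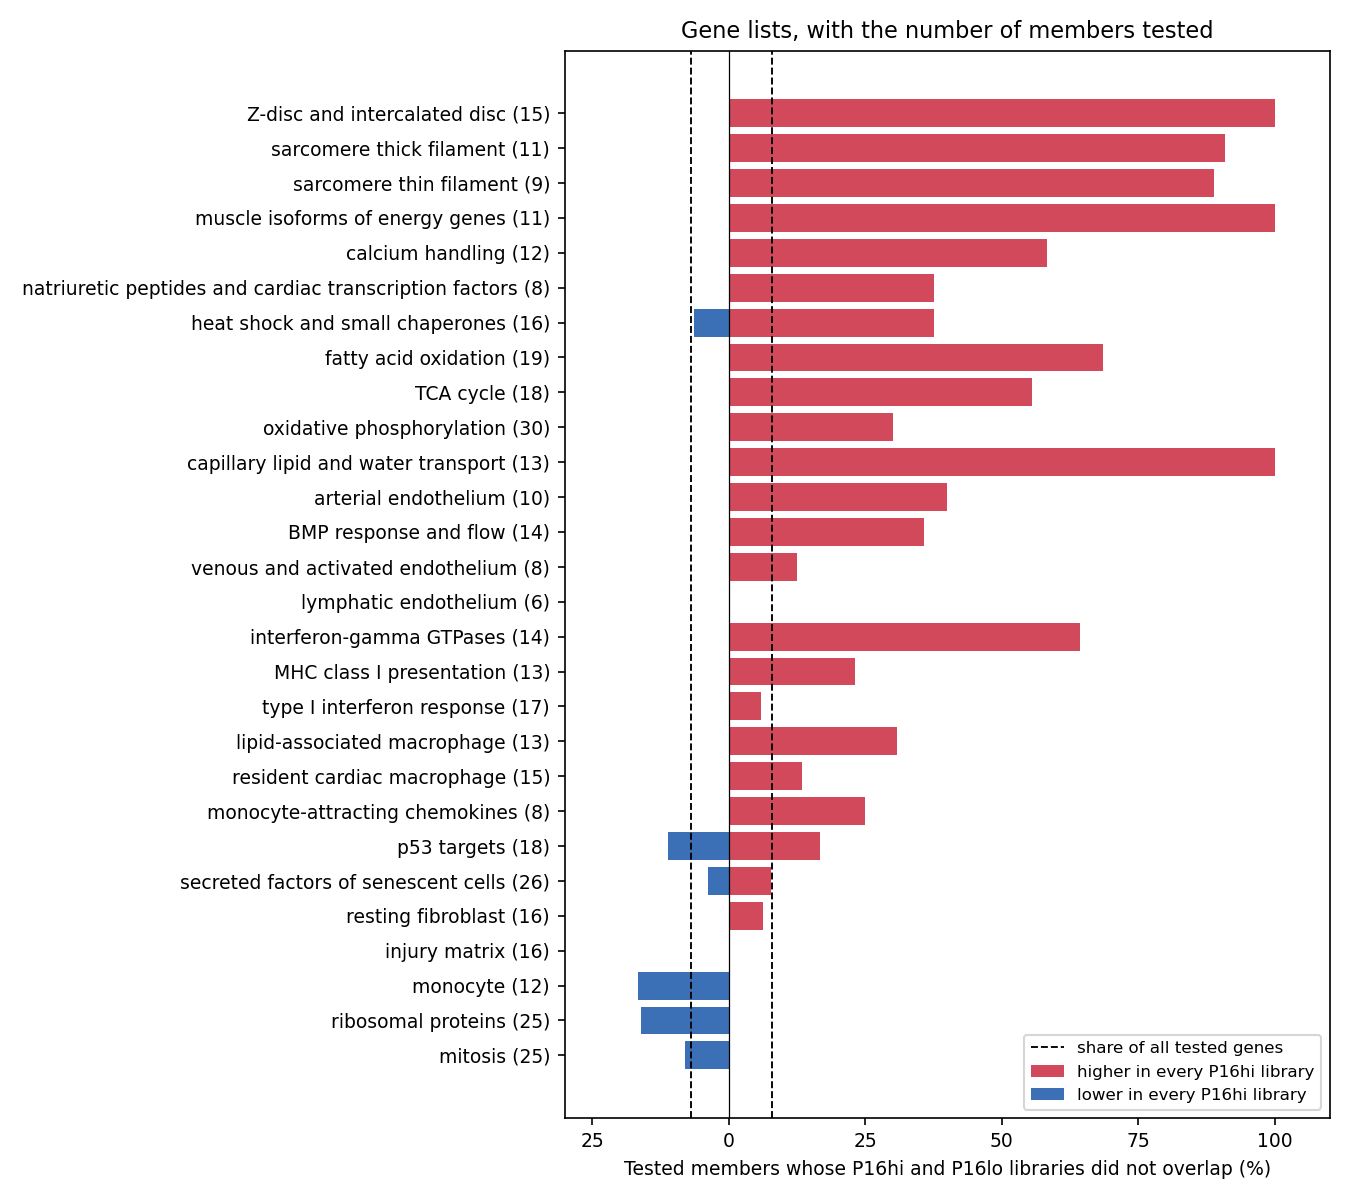
Share of the tested members of 28 gene lists (number tested in brackets) that were higher (red, to the right) or lower (blue, to the left) in every P16hi library than in every P16lo library. The dashed lines mark the share of all tested genes, 7.92% higher and 6.92% lower; heart muscle, fatty acid oxidation, capillary and interferon-gamma GTPase lists extend far beyond them to the right.

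Heart muscle genes were far higher in the P16hi libraries. Of 67 measured genes on 7 joined lists (cardiomyocyte markers, sarcomere, Z-disc, calcium handling, muscle energy isoforms, natriuretic peptides and cardiac transcription factors), 66 passed the filter on low counts. Of these, 54 were higher in every P16hi library than in every P16lo library and 0 were lower, with a median log2 fold change of 3.51. Their summed level was 1716, 1322 and 2327 CPM in the P16lo libraries, against 22370, 14190 and 6906 CPM in the P16hi libraries. By adjusted p over all genes, DESeq2 called 46 of the 66, limma on log2(TPM + 1) called 45 and edgeR 0; edgeR called 16 of them without P16hi 3, and none without any other library. All 16 cardiomyocyte markers were separated, although per the labels cardiomyocytes had been taken out before the sort.

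In the thick filament, the myosin-based motor of the sarcomere, 10 of 11 genes were separated. Myl3, the ventricular essential light chain, had 33.4, 25.2 and 28.2 CPM in the P16lo libraries, against 951, 621 and 285 CPM in the P16hi libraries. Even the lowest P16hi library was thus several times above the highest P16lo library, and the log2 fold change was 4.42 (SE 0.54, edgeR adjusted p = 0.0838). Myh6, the α-myosin heavy chain of the adult mouse heart, had 10.8, 13.9 and 14.9 CPM against 568, 305 and 129 CPM. Ttn, titin, the spring that spans the sarcomere, had 6.40, 6.90 and 5.70 CPM against 70.4, 84.9 and 32.9 CPM. The member that overlapped was Myl4, the atrial light chain, which is named here after its values were seen.

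In the thin filament 8 of 9 genes were separated, Nebl being the exception. Actc1, cardiac α-actin (chr2), had 71.0, 90.4 and 86.4 CPM in the P16lo libraries, against 2420, 1731 and 770 CPM in the P16hi libraries, a log2 fold change of 4.31 (SE 0.52, edgeR adjusted p = 0.0838). All 15 genes of the Z-disc, which anchors the thin filaments, and of the intercalated disc were separated. Ldb3, a Z-disc scaffold (chr14, 34526699 to 34590314), had 2.74, 2.03 and 2.74 CPM against 81.1, 71.8 and 32.2 CPM. Csrp3, a stretch-linked Z-disc protein, had 13.2, 7.44 and 10.3 CPM against 261, 193 and 93.0 CPM, so that both genes were an order of magnitude apart on average.

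Calcium handling genes were divided: 7 of 12 were separated. Pln, phospholamban, the brake on the calcium pump of heart muscle, had 26.3, 11.7 and 22.5 CPM in the P16lo libraries, against 514, 437 and 209 CPM in the P16hi libraries. Atp2a2, the pump itself, which many cells also express, had 75.1, 71.6 and 84.7 CPM against 422, 310 and 140 CPM. Its log2 fold change of 1.91 (SE 0.45) was below the 4.26 (SE 0.54) of Pln; edgeR adjusted p = 0.343 and 0.0838. The 5 that overlapped were Slc8a1, Cacna1c, Jph2, Sln and Asph, named here after their values were seen.

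All 11 muscle isoforms of energy genes were separated. Mb, myoglobin, which stores oxygen in heart and red muscle, had 22.8, 26.5 and 22.8 CPM in the P16lo libraries, against 777, 519 and 217 CPM in the P16hi libraries. Fabp3, the fatty acid carrier of heart muscle, had 59.7, 28.6 and 34.4 CPM against 1479, 668 and 401 CPM. Nppa, the atrial natriuretic peptide, had 18.3, 7.44 and 42.2 CPM against 242, 145 and 134 CPM, and it was 1 of 3 separated genes among 8 natriuretic peptides and cardiac transcription factors. Nkx2-5, a transcription factor of heart muscle, was another, at 0.67, 0.41 and 0.77 CPM against 28.5, 5.74 and 3.47 CPM.

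Within the P16hi group the muscle genes moved together. In 51 of the 66 genes P16hi 1 was the highest P16hi library, and P16hi 3 was highest in 4. Over all 13262 tested genes these numbers were 4629 and 4671. The unscaled values looked different: the 16 cardiomyocyte markers held 35951, 42272 and 40749 estimated counts in P16hi libraries 1, 2 and 3, nearly the same number in libraries whose totals were 3.16, 5.06 and 10.2 M. Scaled to library size, the same counts were 11000, 7137 and 3144 CPM. The P16lo libraries held 8608, 5700 and 4744 counts of these markers, or 444.5, 385.5 and 520 CPM. Whether depth had a part in the size of the difference was not tested.

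Per length, the rank order of the muscle genes was largely shared by both groups. Over the 66 genes, mean TPM (transcripts per 1000000) in P16lo and P16hi libraries had a Spearman correlation of 0.90, a description across genes that share libraries. It was not computed for other gene sets, and is therefore not shown to be particular to muscle. Log2 CPM over all tested genes also correlated between the groups, at 0.722 to 0.916. Some ranks moved, as for Mef2c, which was 15 in P16lo and 37 in P16hi libraries. Fabp3 led in P16hi libraries with 1900 ± 939 TPM (SD, n = 3), followed by Myl2 with 1480 ± 593 TPM and Actc1 with 1430 ± 523 TPM. In P16lo libraries these genes had 70.8 ± 59.9, 48.5 ± 20.5 and 47.9 ± 17.5 TPM, and Slc25a4, the muscle form of the mitochondrial ADP/ATP carrier, led with 148 ± 37.4 TPM.

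In F4/80-high cells, whose table was scaled separately, 37 of these 66 genes were tested, and the 67 summed to 707 to 966 CPM in 5 libraries and to 2968 CPM in P16hi library 3. The reporter difference of both sorts was compared gene by gene in a fit of all 12 libraries, which called 0 of 14073 genes; at an unadjusted p under 0.05 the difference was more positive in PDGFRα-high cells for 113 genes (0.803%) and more negative for 186 (1.32%). Of the 66 heart muscle genes, 4 were among the former and 1 among the latter.

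**Figure D3:**
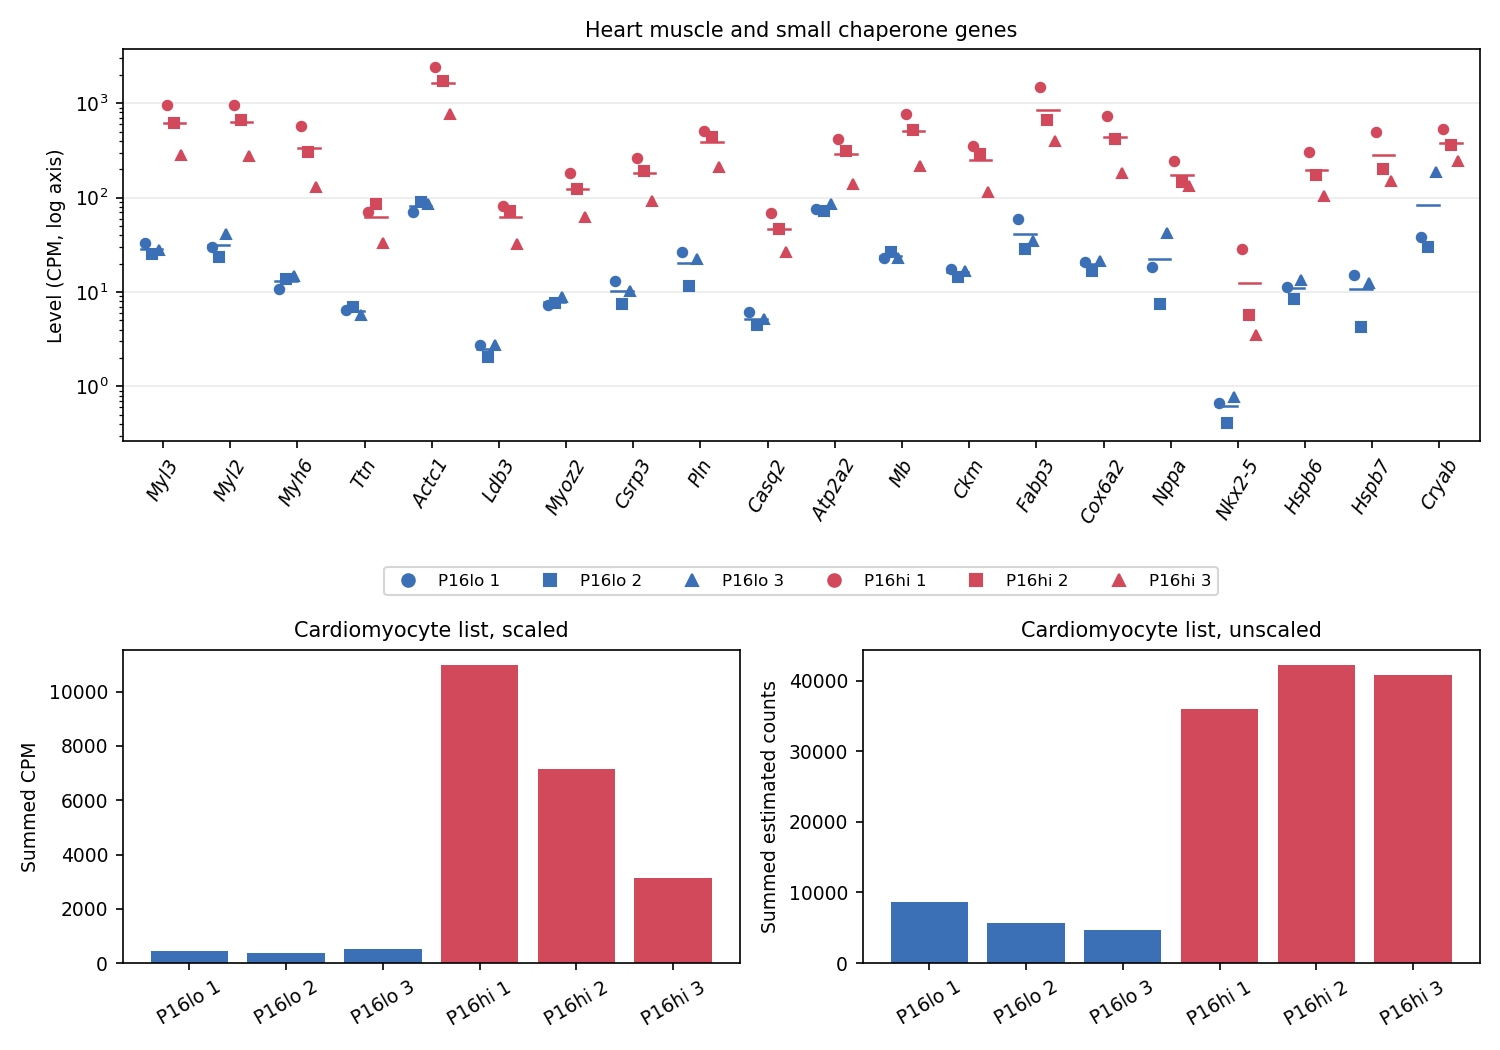
Top, level (CPM, log axis) of 20 heart muscle and small chaperone genes in each P16lo (blue) and P16hi (red) library, with horizontal lines at group means; the 3 red points lie above the 3 blue points for every gene shown. Bottom, the 16 cardiomyocyte markers summed per library as CPM (left, 3144 to 11000 in P16hi libraries) and as unscaled estimated counts (right, 35951 to 42272).

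Promoters of the muscle genes were read because so many of them were higher together. The CArG box, the binding motif of serum response factor, which drives many muscle genes, was searched on both strands in the 300 bases around the first RefSeq start site of each gene (250 before and 50 after, build GRCm38.p6). It was present in 7 of the 54 heart muscle promoters in the table (13.0%), those of Acta1, Actc1, Fhl2, Myl3, Myl7, Myom1 and Ldb3, and in 425 of all 27025 promoters (1.57%). Shown are Actc1 (chr2:114052826-114053125, minus strand) and Myl3 (chr9:110763428-110763727, plus strand), both far apart between the groups, with the CArG box in capitals at position -47 and -85 from the start site. A match describes the letters and is not evidence of binding.
Actc1: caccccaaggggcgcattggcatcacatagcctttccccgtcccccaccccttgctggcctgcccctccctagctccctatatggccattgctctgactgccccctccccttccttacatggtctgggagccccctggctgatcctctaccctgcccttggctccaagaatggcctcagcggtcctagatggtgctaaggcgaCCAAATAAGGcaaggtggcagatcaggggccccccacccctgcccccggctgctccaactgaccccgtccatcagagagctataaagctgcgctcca
Myl3: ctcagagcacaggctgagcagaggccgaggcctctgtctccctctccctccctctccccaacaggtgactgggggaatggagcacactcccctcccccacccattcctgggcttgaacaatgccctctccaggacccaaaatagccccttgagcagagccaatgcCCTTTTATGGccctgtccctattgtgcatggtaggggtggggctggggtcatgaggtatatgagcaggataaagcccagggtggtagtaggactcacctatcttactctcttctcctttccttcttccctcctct

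Small heat shock proteins were higher beside the muscle genes. They hold unfolded proteins in solution and are abundant in the Z-disc of muscle. Of 16 heat shock and chaperone genes, 6 were separated upward and 1 downward. Hspb6 had 11.3, 8.39 and 13.4 CPM in the P16lo libraries, against 308, 175 and 105 CPM in the P16hi libraries, a log2 fold change of 4.15 (SE 0.51, edgeR adjusted p = 0.0838). Hspb7 had 15.2, 4.26 and 12.6 CPM against 495, 200 and 151 CPM. Cryab, αB-crystallin, had 38.1, 29.8 and 185 CPM against 529, 361 and 243 CPM, and in it P16lo 3 came close to the lowest P16hi library. The median of the whole list was 0.38, and the other 9 of 16 overlapped.

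Mitochondrial fuel genes were moderately higher. Fatty acid oxidation feeds acetyl-CoA from fats into the TCA cycle and is the main fuel pathway of the adult heart. Of 19 of its enzymes, 13 were higher in every P16hi library and 0 lower, with a median log2 fold change of 1.02. Among TCA cycle genes 10 of 18 were separated, with a median of 0.79, and among oxidative phosphorylation subunits 9 of 30, with a median of 0.67. Without P16hi 3, the last 2 counts were 18 and 28, beside 12.4% of all tested genes separated upward in that setting. With library totals they were 17 and 25, beside 17.2% of all tested genes. Without P16hi 1 the medians of fatty acid oxidation and TCA genes were 0.74 and 0.44.

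Etfdh, which passes electrons from fatty acid oxidation to ubiquinone, had 17.1, 20.1 and 18.5 CPM in the P16lo libraries, against 67.6, 61.6 and 41.7 CPM in the P16hi libraries, a log2 fold change of 1.61 (SE 0.32, edgeR adjusted p = 0.272). Hadhb, a subunit of the trifunctional protein for long chains, had 78.2, 73.7 and 82.4 CPM against 446, 205 and 147 CPM. Acadm, the medium-chain dehydrogenase, had 50.2, 36.2 and 45.3 CPM against 215, 133 and 86.4 CPM. The P16lo libraries were close together in all 3 genes, and the P16hi libraries were spread out, with P16hi 1 highest. P16hi 1 was the highest P16hi library in 16 of the 19 fatty acid oxidation genes, 14 of the 18 TCA genes and 28 of the 30 subunits. Over all tested genes this held for 4629 of 13262. It also held for the sum of cardiomyocyte markers (11000, 7137 and 3144 CPM). The same was seen in 25 of 25 ribosomal protein genes, whose median log2 fold change was -0.33. The part of cardiomyocytes in these differences was not tested.

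The reporter difference of these genes was also set beside that of F4/80-high cells, with 0 calls by adjusted p. Of the 19 enzymes, 6 had a more positive difference in PDGFRα-high than in F4/80-high cells at an unadjusted p under 0.05 and 0 a more negative one, beside 0.803% and 1.32% of all genes. Among TCA genes these were 5 and 0 of 18, and among oxidative phosphorylation subunits 3 and 0 of 30. Among genes whose mean log2 CPM over the 12 libraries reached 3, Etfdh had the smallest p in that direction (difference of log2 fold changes 1.57, SE 0.42, edgeR unadjusted p = 0.00293, adjusted p = 1.0), and Hadhb, Eci1 and Acadl, enzymes of the same pathway, were among the 5 smallest. In F4/80-high cells Etfdh had 19.1, 24.4 and 28.3 CPM in the P16lo libraries, against 26.0, 26.7 and 23.6 CPM in the P16hi libraries, which overlapped.

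Endothelial genes formed the other large group. The joined lists covered endothelial markers and genes of capillary transport, arteries, veins, lymphatics, tip cells, and BMP and flow. Of a list of Krüppel-like factors, 1 of 8 was separated upward and 1 downward, and only Klf2 and Klf4 were joined. Of the 74 joined genes, all of which passed the filter, 38 were higher in every P16hi library and 0 lower. The median log2 fold change of the 74 was 1.71. They summed to 5769, 2445 and 5386 CPM in the P16lo libraries, against 17590, 13640 and 16660 CPM in the P16hi libraries. DESeq2 called 19 of the 74, limma on log2(TPM + 1) called 17 and edgeR 0. Without P16hi 3 the median was 1.15.

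The genes of capillary lipid and water transport were separated without exception, 13 of 13, with a median of 2.47. Heart capillaries take up fatty acids from blood for the muscle beside them. Fabp4, a fatty acid carrier of capillary endothelium and of lipid-laden macrophages, had 1165, 181 and 545 CPM in the P16lo libraries, against 7070, 3360 and 2475 CPM in the P16hi libraries. Aqp1, the water channel, had 255, 74.7 and 105 CPM against 507, 508 and 742 CPM. Cav1, the coat protein of caveolae, had 183, 40.0 and 96.7 CPM against 481, 578 and 648 CPM, a log2 fold change of 2.42 (SE 0.57, edgeR adjusted p = 0.343). P16lo 1 was the highest P16lo library in all 3, and P16lo 2 the lowest.

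Other vascular genes followed in part. Efna1, an ephrin ligand of endothelium and one of the few of the 22 leading genes outside muscle, had 12.2, 8.52 and 9.21 CPM in the P16lo libraries, against 63.0, 54.7 and 65.0 CPM in the P16hi libraries, with little spread in either group and a log2 fold change of 2.61 (SE 0.32, edgeR adjusted p = 0.0838). Among arterial genes 4 of 10 were separated, including Sox17, an arterial transcription factor, with 19.6, 4.94 and 8.22 CPM against 86.6, 42.4 and 87.2 CPM, and the Notch ligand Dll4. Among genes of the BMP response and of flow 5 of 14 were separated, including Id1, an inhibitor of differentiation induced by BMP, with 74.0, 34.7 and 70.2 CPM against 414, 264 and 355 CPM. Venous genes (1 of 8, Ephb4) and lymphatic genes (0 of 6) were at or near the background share. Prox1, the master factor of lymphatic identity, had 0.88, 1.89 and 4.17 CPM against 0.61, 5.57 and 25.5 CPM, so that P16hi 3 alone stood high. P16hi 3 was the highest of the 3 P16hi libraries in all 6 lymphatic and all 8 venous genes.

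P16hi 3 was the highest P16hi library in 49 of the 74 endothelial genes, unlike in the muscle genes, where it was highest in 4 of 66. Over all tested genes this held for 4671 of 13262. In F4/80-high cells the 74 genes summed to 1500 to 4132 CPM in 5 libraries and to 25170 CPM in P16hi library 3. Of the 74, 0 had a more positive and 6 a more negative reporter difference in PDGFRα-high than in F4/80-high cells at an unadjusted p under 0.05, beside 0.803% and 1.32% of all genes.

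**Figure D4:**
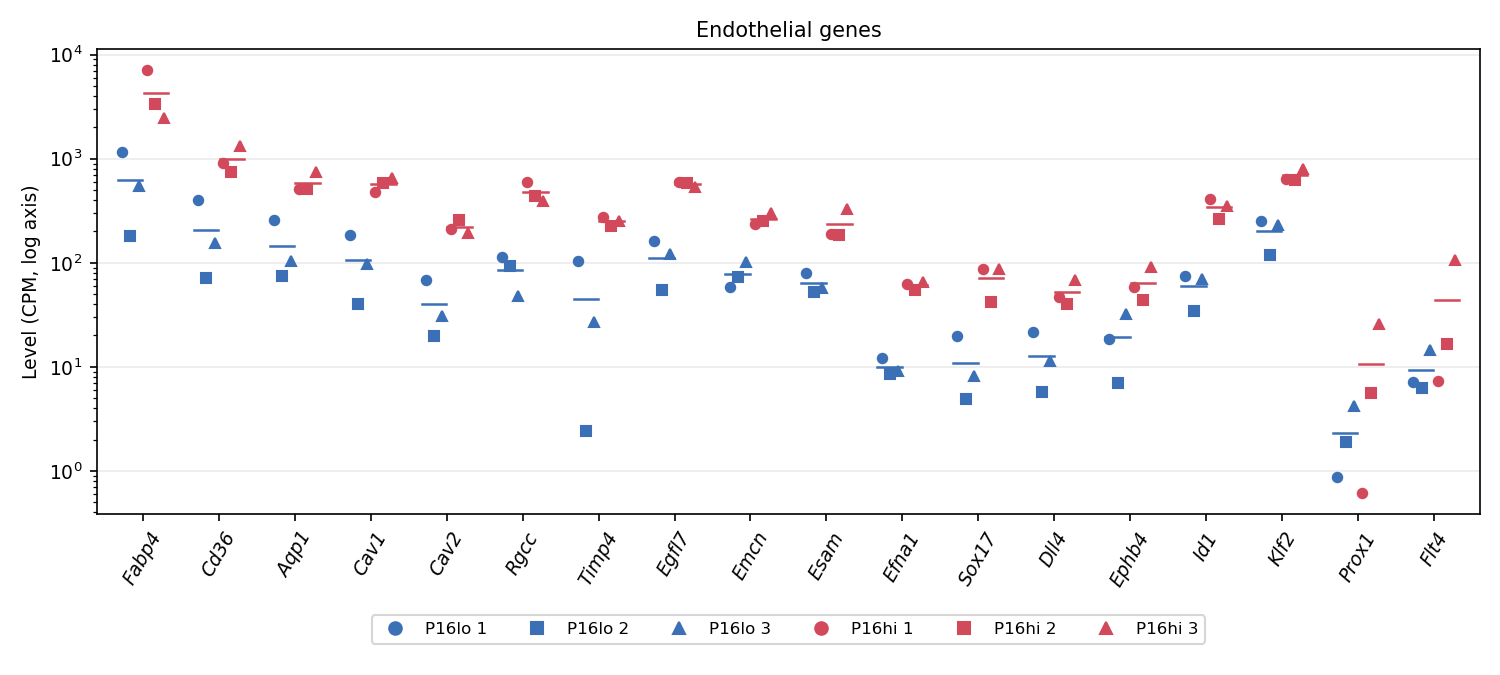
Level (CPM, log axis) of 18 endothelial genes in each P16lo (blue) and P16hi (red) library, with horizontal lines at group means. Capillary genes from Fabp4 to Timp4 show 3 red points above 3 blue points, while the lymphatic genes Prox1 and Flt4 overlap and are carried by P16hi 3.

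Interferon-gamma GTPases had the largest separated share among the immune lists. These are the guanylate-binding proteins (Gbp) and immunity-related GTPases (Irg, Tgtp, Igtp), which cells make in response to interferon-gamma and which attack the vacuoles of microbes inside the cell. Of 14 genes, all tested, 9 were higher in every P16hi library and 0 lower, with a median log2 fold change of 2.24. DESeq2 called 4, limma 1 and edgeR 0. On TPM, 4 of 14 were separated upward, beside 19.5% of all tested genes. The median without P16hi 3 was 0.99. Their copies are near-identical in part (Tgtp1 and Tgtp2 above all), so counts may be shared among them.

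Gbp2 (chr3) had 67.4, 43.9 and 57.7 CPM in the P16lo libraries, against 91.8, 242 and 839 CPM in the P16hi libraries. The groups did not overlap, but P16hi 1 stood just above P16lo and P16hi 3 far above the rest; the log2 fold change was 2.80 (SE 0.78, edgeR adjusted p = 0.480), and 1.56 without P16hi 3. Tgtp1 had 33.9, 20.2 and 16.1 CPM against 90.0, 92.2 and 360 CPM. Irgm1, which steers the other GTPases away from the cell's own membranes, had 92.4, 116 and 48.2 CPM against 149, 202 and 497 CPM. In each of the 14 genes P16hi 3 was the highest P16hi library and P16hi 1 the lowest. The list summed to 792, 518 and 480 CPM in the P16lo libraries, against 813, 1866 and 6260 CPM in the P16hi libraries.

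Related lists are given beside it. Type I interferon response genes, which hold viruses in check, were separated in 1 of 17, with a median of 0.41. MHC class I presentation genes were separated in 3 of 13, including Psmb9, a subunit of the immunoproteasome, with 151, 153 and 67.0 CPM in the P16lo libraries, against 235, 240 and 291 CPM in the P16hi libraries. Cxcl9, a chemokine induced by interferon-gamma, had 32.6, 4.60 and 18.3 CPM against 16.2, 97.2 and 201 CPM, and overlapped because of P16hi 1. Markers of T and NK cells, which make interferon-gamma, summed to 178, 2709 and 737 CPM in the P16lo libraries, against 77.1, 252 and 475 CPM in the P16hi libraries, and 0 of 18 were separated. In 15 of 18 P16hi 3 was the highest P16hi library. The same held for 17 of 17 type I interferon genes, 7 of 7 B cell markers and 15 of 16 resting fibroblast genes. It held for 0 of 16 macrophage markers and for 4671 of 13262 tested genes. The part of T and NK cells in the GTPase difference was not tested.

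Promoters of the GTPases carried the motif of the interferon factors. The core of the interferon-stimulated response element, GAAANNGAAA, was searched on both strands in the same 300 bases, and was present in 9 of the 9 GTPase promoters that the RefSeq table holds, against 943 of 27025 promoters (3.49%). The gamma-activated site TTCNNNGAA, another motif of interferon-responsive genes, was present in 6 of the 9 and in 2288 of 27025 (8.47%), and no pair of both motifs overlapped in these 9. Shown are 3 GTPases with separated groups, with the response element in capitals: Gbp2 (chr3:142620413-142620712, plus strand, first base 59 bases before the start site), Tgtp1 (chr11:48992197-48992496, minus strand, 77 bases before) and Irgm1 (chr11:48871371-48871670, minus strand, with overlapping matches 30 and 24 bases before). The motif is known for this family, and its presence says nothing about its use in these cells.
Gbp2: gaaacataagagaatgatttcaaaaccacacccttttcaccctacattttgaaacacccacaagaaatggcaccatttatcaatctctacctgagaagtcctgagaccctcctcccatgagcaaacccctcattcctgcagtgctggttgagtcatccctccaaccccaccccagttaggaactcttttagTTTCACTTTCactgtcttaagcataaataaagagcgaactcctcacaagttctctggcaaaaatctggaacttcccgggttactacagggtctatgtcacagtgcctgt
Tgtp1: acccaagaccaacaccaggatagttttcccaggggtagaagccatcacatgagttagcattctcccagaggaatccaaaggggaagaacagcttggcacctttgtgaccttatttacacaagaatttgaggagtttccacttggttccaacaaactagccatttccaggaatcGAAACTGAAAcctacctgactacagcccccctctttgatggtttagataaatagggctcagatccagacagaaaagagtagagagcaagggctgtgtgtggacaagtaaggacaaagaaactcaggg
Irgm1: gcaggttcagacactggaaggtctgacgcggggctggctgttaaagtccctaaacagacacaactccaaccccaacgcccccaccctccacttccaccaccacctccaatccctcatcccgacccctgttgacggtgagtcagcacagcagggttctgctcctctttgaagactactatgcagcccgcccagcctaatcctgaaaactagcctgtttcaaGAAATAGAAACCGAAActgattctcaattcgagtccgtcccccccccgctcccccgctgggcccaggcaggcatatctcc

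Ccl8, the chemokine of the series title, which draws monocytes and lymphocytes, was higher in every P16hi library (429, 123 and 128 CPM) than in every P16lo library (82.9, 3.52 and 12.5 CPM). The exact two-sided permutation p was 0.1, the smallest possible, and the log2 fold change was 2.78 (SE 1.14, edgeR adjusted p = 0.746). Of the 8 monocyte-attracting chemokines, Ccl7, its neighbour on chromosome 11, was the other separated one (85.7, 62.8 and 37.6 CPM against 131, 87.3 and 87.3 CPM). Both also make up the separated-upward part of the 26 secreted factors of senescent cells, of which 2 were higher, 1 lower (Plau) and 23 overlapped. This share was close to the background of 7.92% and 6.92%.

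Few genes of cell cycle arrest were separated, and those went in both directions. Among 18 p53 targets, 3 were separated upward and 2 downward. Plk2, a kinase induced by p53 and by stress, had 49.4, 22.8 and 41.1 CPM in the P16lo libraries, against 117, 121 and 130 CPM in the P16hi libraries, with 3 nearly equal P16hi values and a log2 fold change of 1.70 (SE 0.36, edgeR adjusted p = 0.309). Perp, a membrane protein of p53-dependent death, had 3.41, 1.49 and 5.70 CPM against 7.96, 28.9 and 17.4 CPM. Cdkn1a, the p21 inhibitor and the best-known p53 target, overlapped, with 643, 222 and 199 CPM against 298, 348 and 467 CPM. Cdkn1b, the p27 inhibitor, was lower in every P16hi library (75.2, 60.5 and 53.2 CPM against 15.3, 29.0 and 52.0 CPM), with P16hi 3 just below P16lo 3. Of 9 cell cycle inhibitors tested, 7 had a negative log2 fold change, with a median of -0.64. Of 25 mitosis genes, 24 were negative, with a median of -1.71, 0 separated upward and 2 downward. All 22 DNA replication genes were negative, with a median of -0.63. P16lo 2 was the highest P16lo library in 24 of the 25 and in 22 of the 22, beside 4340 of all 13262 tested genes.

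Fibroblast programs overlapped. Of 16 resting fibroblast genes 1 was separated (Ly6a, upward), and of 16 injury matrix genes 0. Col1a1, the main collagen of scar, had 180, 703 and 4902 CPM in the P16lo libraries, against 1230, 284 and 1152 CPM in the P16hi libraries, with the highest and the lowest value both in the P16lo group. Postn, periostin, a mark of activated fibroblasts, had 34.3, 125 and 977 CPM against 312, 94.5 and 238 CPM. The median of the 16 fibroblast markers was -1.17, but 1.24 without P16lo 3, which was the highest P16lo library in 15 of the 16. Epicardial and mesothelial markers, from the outer layer of the heart, were low but higher in P16hi libraries in 3 of 8: Msln, mesothelin, had 0.62, 4.80 and 3.18 CPM against 9.18, 8.44 and 42.4 CPM, and Wt1, an epicardial transcription factor, 5.73, 0.41 and 4.28 CPM against 14.4, 11.8 and 32.1 CPM.

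Lipid-associated macrophage genes were separated in 4 of 13 (Fabp5, Lpl, Cd36 and Fabp4), of which Cd36, Lpl and Fabp4 are also made by capillaries or muscle. Cd36, a fatty acid and scavenger receptor, had 399, 71.0 and 154 CPM in the P16lo libraries, against 920, 745 and 1328 CPM in the P16hi libraries. Gpnmb, a surface protein of lipid-laden macrophages, had 73.0, 13.7 and 29.4 CPM against 1138, 79.5 and 49.1 CPM, and was carried by P16hi 1. Macrophage identity genes such as Adgre1, the F4/80 gene, at 772, 52.0 and 28.7 CPM against 255, 221 and 135 CPM, overlapped.

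Among genes lower in P16hi cells, Thbs1, thrombospondin 1, a matrix protein that activates latent TGF-β (chr2), had 183, 317 and 129 CPM in the P16lo libraries, against 26.9, 22.1 and 59.2 CPM in the P16hi libraries. The groups were well apart, with a log2 fold change of -2.53 (SE 0.54, edgeR adjusted p = 0.310, the smallest of the named lower genes, and DESeq2 adjusted p = 0.00116). E2f2, a cell cycle transcription factor that the retinoblastoma protein holds in check, had 16.3, 105 and 58.0 CPM against 11.9, 6.42 and 9.64 CPM. Snx18, a membrane-shaping sorting nexin, had 89.3, 60.3 and 99.6 CPM against 32.1, 38.3 and 39.4 CPM.

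Other genes named for the smallest p among those lower have varied roles. Itgax, the CD11c integrin of dendritic cells and macrophages, had 54.9, 110 and 33.8 CPM in the P16lo libraries, against 11.9, 23.1 and 22.0 CPM in the P16hi libraries. Itgav, the αV integrin that binds vitronectin and latent TGF-β, had 49.9, 24.7 and 42.8 CPM against 9.18, 15.5 and 17.7 CPM. Bcl2a1d, a survival gene of myeloid cells with near-identical copies, had 66.2, 65.9 and 41.3 CPM against 19.9, 26.8 and 28.6 CPM. Insig1, the sterol sensor that restrains cholesterol synthesis, had 42.9, 45.4 and 29.6 CPM against 13.5, 17.9 and 21.8 CPM. In these 4 genes P16hi 1 was the lowest of all 6 libraries, and in none did the groups overlap.

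Monocyte markers lay below 0 throughout. All 12 had a negative log2 fold change, with a median of -2.39, and 2 of 12 were separated downward (Thbs1 and Chil3) and 0 upward. They summed to 898.7, 5969 and 574.4 CPM in the P16lo libraries, against 225.8, 337 and 627.6 CPM in the P16hi libraries, which overlapped, and P16lo 2 was the highest P16lo library in 10 of the 12. Without P16lo 2 the median was -0.44. On log2(TPM + 1) it was -0.98 with 0 separated, beside 0.128% of all tested genes separated downward in that setting. Without P16hi 3 or without P16lo 3 there were 5 separated downward, beside 13.9% and 16.6% of all tested genes. Chil3, a chitinase-like protein of inflammatory monocytes, had 32.5, 2177 and 32.3 CPM against 17.4, 31.7 and 18.1 CPM. Its log2 fold change of -5.06 (SE 1.73, edgeR adjusted p = 0.624) was -0.53 without P16lo 2.

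Other leukocyte lists were mostly on that side. Of 11 neutrophil markers tested, 9 were negative, with a median of -1.88 and 1 separated downward. Of 9 dendritic cell markers, 7 were negative, with a median of -1.66, 2 separated downward and 1 upward. P16lo 2 was the highest P16lo library in 8 of the 11 and in 7 of the 9, beside 4340 of all 13262 tested genes. Neutrophil markers summed to 130, 2477 and 313 CPM in the P16lo libraries, against 125, 89.1 and 235 CPM in the P16hi libraries. Dendritic cell markers summed to 119, 507 and 253 CPM against 89.0, 130 and 163 CPM. All 18 T and NK cell markers and all 7 B cell markers had a negative log2 fold change, with medians of -1.84 and -1.65 and 0 separated in either list. P16lo 2 was the highest P16lo library in 18 of the 18 T and NK cell markers and in 6 of the 7 B cell markers. Of 13 chemokine receptors tested, 12 were negative, with a median of -1.52 and 0 separated. Medians of these leukocyte and receptor lists with P16lo 2 left out are not given here, and its part in them was not tested.

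The lower genes were also set beside depth and scaling. Of the 918 separated downward, 142 (15.5%) had 0 counts in P16hi 1, beside 13.8% of all tested genes. All 15 lower genes named by rule had counts in it. The rule had required these 15 to be separated in the main comparison. With library totals only, 6 of the 15 stayed separated (Celf2, Itgav, Thbs1, Snx18, E2f2 and Mia3), beside 0.543% of all tested genes separated downward in that setting. On TPM 1 did (E2f2), beside 0.128% of all tested genes. All 15 kept a negative log2 fold change in both settings. The 15 higher genes named by rule, which the rule required to be separated, were so under each other scaling and filter that was run. The share of all tested genes separated upward in those settings ran from 6.29% to 19.5%.

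**Figure D5:**
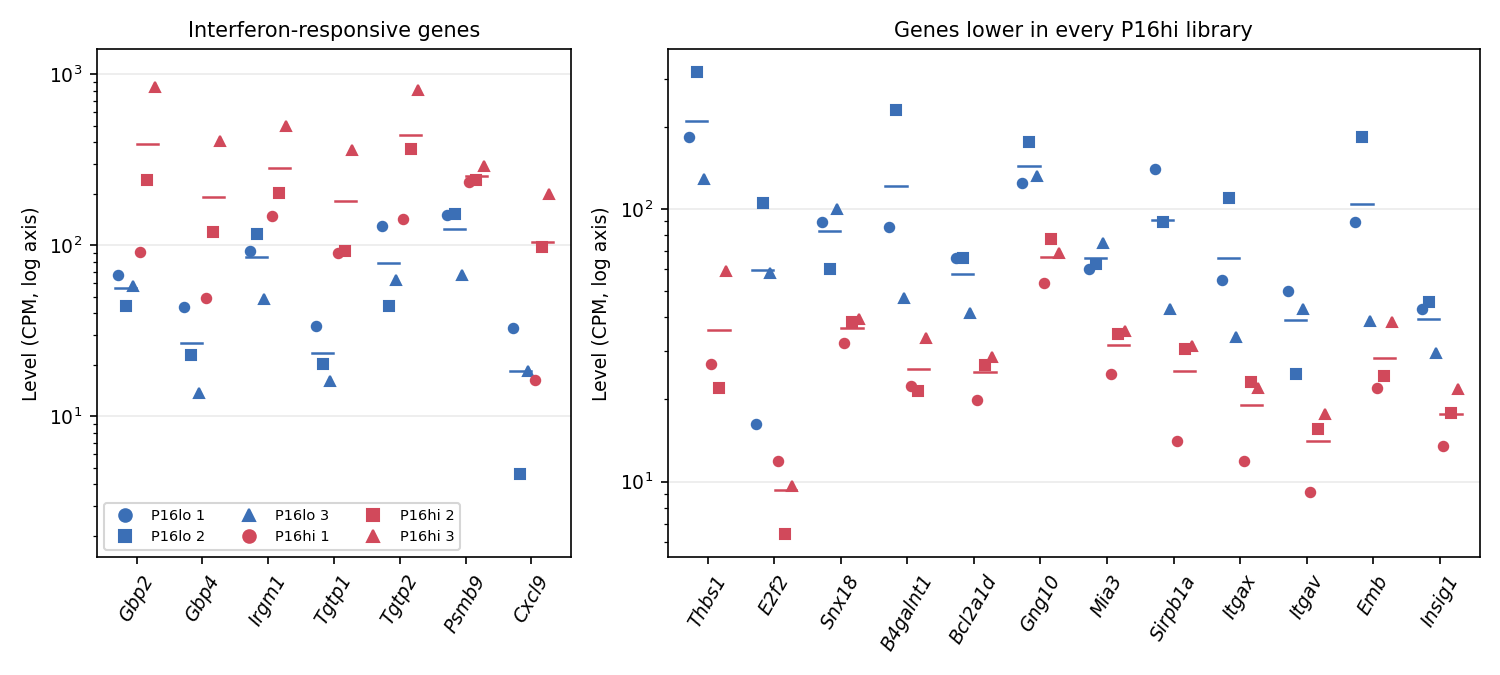
Level (CPM, log axis) in each P16lo (blue) and P16hi (red) library, with horizontal lines at group means, of 7 interferon-responsive genes (left) and of 12 genes lower in every P16hi library (right). On the left P16hi 3 is the highest library for every gene and P16hi 1 the lowest P16hi library; on the right the 3 red points lie below the 3 blue points.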

How the data were processed

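RNA of sorted cells was reverse transcribed, fragmented and tagged by a transposase and sequenced as DNA nanoballs, per the labels' protocols. The submitters' processing notes name HISAT with builds GRCm38 and mm10; its version, the counter and strand use are not given in the sources used, so counts of overlapping genes and near-identical copies are uncertain. The deposited values of each library are, per the file headers, an estimated count, a normalised read count (a signal), TPM and FPKM; comparisons here use the first and TPM. The table of each sort held a pair of column blocks, joined here by gene identifier, with unlisted genes set at 0.

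The deposited estimated counts were rounded to whole numbers for edgeR 4.0.16 under R 4.3.3 (filterByExpr with a minimum count of 10, TMM scaling, robust quasi-likelihood F-test, 3 P16hi against 3 P16lo libraries, Benjamini-Hochberg threshold 0.05). An interaction term over all 12 libraries compared the reporter difference of both sorts. The test was also run on counts simulated with the fitted spread of these libraries and without a block of unlisted genes. Its outcome is not used here. CPM use TMM-scaled library sizes. Standard errors come from the F statistic. For Cdkn2a, Pdgfra and Ccl8, log2(CPM + 1) was compared by an exact permutation test, two-sided. DESeq2 1.42.0 and limma 3.58.1 served as alternatives, beside other scalings, filters, a replicate block and leaving out each library. Gene coordinates, promoters and motif counts are from RefSeq and GENCODE tables of GRCm38, with scipy 1.17.1 and Python 3.11.15.

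The members and the gene lists were chosen with earlier results of these data known, and a list is therefore described by counts and medians, with no test. Genes were named by this rule: Cdkn2a, Pdgfra, Adgre1 and Ccl8 always; in each direction, the 15 genes with the smallest p whose mean log2 CPM reached 3 and whose groups did not overlap, leaving out predicted genes; from each list, any of the 4 members of smallest p and the 4 of highest mean CPM; and the 5 of smallest p in each direction for the difference between sorts, of which some are not reported here. The choice among these, and of genes that complete a count, was made with values in view.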

Additional observations from a re-analysis of the deposited data

How the results depend on the processing

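edgeR called 0 genes higher and 0 lower with DESeq2's size factors, upper quartile scaling, hemoglobin genes taken out, at least 50 counts in 3 libraries, genes listed in both blocks, no robust option and all 12 libraries in 1 fit. It called 39 higher with library totals only and 23 with no low-count filter. The number higher was 293 by DESeq2, which also called 11 lower, 219 by limma on log2(TPM + 1) and 135 on log2(TPM + 0.1). With each replicate left out, the number called higher ran from 0 to 17 and the number called lower stayed at 0. The number separated upward was 2279 with library totals only and 2585 on TPM, and ran from 1431 to 1949 with a replicate left out. The number separated downward was 72 with library totals only, 542 with library totals without hemoglobin genes and 17 on TPM, and ran from 1470 to 2248 with a replicate left out; groups of 2 and 3 separate more easily than groups of 3. The difference between sorts had 0 calls in each alternative. The causes of these shifts were not tested.

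The mean difference of log2(CPM + 1) of Pdgfra, 0.137 in the main comparison (exact permutation p = 0.9), was -0.0428 with a pseudocount of 5 and ran from -0.753 to 1.69 with a replicate left out. Its edgeR log2 fold change of -1.22 was 0.58 and 0.92 on log2(TPM + 1) and log2(TPM + 0.1) and 0.20 with the replicate block, and ran from -2.05 to 2.14 with a replicate left out. Under the same 3 settings Adgre1 had 1.49, 1.61 and 1.06 (-1.03 to 2.33 with a replicate left out) and Postn 0.93, 0.96 and 0.08 (-1.36 to 1.42), while Col1a1 had 0.51 and 0.52 on TPM (-1.66 to 1.01), and Cdkn1a ran from -0.23 to 0.81. Of 1657 values of 83 named genes under alternatives, 18 had the other sign, all of them in these 5 genes. The sign of the Cdkn2a and Ccl8 differences held under each pseudocount and left-out replicate.

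The labels give both groups replicate numbers 1 to 3. The deviations of same-numbered libraries correlated at 0.102, -0.0102 and 0.308, and those of other-numbered libraries at -0.343 to 0.228. With 3 libraries per group this cannot settle whether the numbers pair the samples. The main test was run without pairing. With the replicate block, edgeR called 0 genes, and its unadjusted p was under 0.05 for 620 higher and 198 lower genes. Not every library correlated best with its own number. The common biological coefficient of variation was 0.656, and a gene without a call is not shown to be equal.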

Other observations

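Among resident macrophage genes, 2 of 15 were separated. Timd4, a receptor for dying cells on resident cardiac macrophages, had 9.29, 11.9 and 1.86 CPM in the P16lo libraries, against 13.5, 35.3 and 15.2 CPM in the P16hi libraries. Fcna, a ficolin of macrophages, had 19.9, 0.88 and 3.07 CPM against 97.9, 30.05 and 47.8 CPM. Cxcl13, the chemokine that draws B cells, had 5.32, 5.88 and 2.52 CPM against 15.3, 12.5 and 244 CPM and was carried by P16hi 3. The 22 DNA replication genes were each highest among P16lo libraries in P16lo 2, and 0 were separated upward and 1 downward.

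In the other direction of the comparison between sorts, Mgst1, a glutathione transferase of membranes, overlapped in PDGFRα-high cells (46.0, 73.2 and 100 CPM against 122, 45.6 and 107 CPM) and was separated in F4/80-high cells (33.0, 29.5 and 29.3 CPM against 192, 180 and 106 CPM). The difference of its log2 fold changes was -2.02 (SE 0.60, edgeR unadjusted p = 0.00627, adjusted p = 1.0). Ada, adenosine deaminase, was lower in every P16hi library of the PDGFRα sort (17.9, 28.3 and 27.5 CPM against 17.4, 11.8 and 9.41 CPM), with P16hi 1 just below P16lo 1. In the F4/80 sort it had 10.7, 9.59 and 7.13 CPM against 19.9, 12.6 and 25.4 CPM.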
